A study of Mus musculus with 6 samples.

Results

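The genes described are 10 regulators of the balance between epithelial and mesenchymal cell states, chosen by name from the 55416 genes of the count table: 5 drivers of the epithelial to mesenchymal transition (EMT), Zeb1, Zeb2, Snai1, Snai2 and Twist1, and 5 epithelial genes, Esrp1, Esrp2, Grhl2, Ovol2 and Epcam. Their RNA levels were measured by RNA-seq in epiblast-like cells (EpiLCs), the in vitro counterpart of the formative pluripotent cells of the early post-implantation mouse embryo. The samples were 3 WT EpiLC and 3 Oct6 KO EpiLC cultures, each harvested after 48 h. Both genotypes were of the 46C mouse embryonic stem cell line, which carries a GFP reporter at Sox1, and both were kept in 2i+LIF before induction on fibronectin with bFGF at 12 ng/ml, Activin A at 20 ng/ml and 1% KSR in N2B27 medium, as the sample labels give these doses. The WT cells were wild type at Oct6. The KO cells were 1 clone made with CRISPR/Cas9, homozygous for a single-nucleotide insertion near the start of the Oct6 coding sequence, so that a property of the clone and the loss of Oct6 cannot be told apart.

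In EMT, epithelial cells loosen their junctions and gain motility. ZEB1, ZEB2, SNAI1 and SNAI2 are zinc finger repressors that bind E-box sequences, among them those in the promoter of the E-cadherin gene Cdh1, and TWIST1 is a bHLH factor that acts on the same programme. Against them stand GRHL2 and OVOL2, transcription factors that maintain epithelial genes and repress Zeb1, ESRP1 and ESRP2, which direct epithelial splicing, EPCAM, a homophilic adhesion molecule of epithelial and pluripotent cells, and the miR-200 family, which targets Zeb1 and Zeb2 transcripts. The mouse epiblast is an epithelium, and cells that leave naïve pluripotency change their adhesion and shape.

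Library totals ran from 10995505 to 14680930 counts. The median log2 fold change of the 15746 genes tested was 0.0014, but the median was 0.55 on chromosome 16, where Snai2 lies, and -0.40 on chromosome 6, which holds no member. The replicate spread corresponded to a biological coefficient of variation of 11.7%. Epiblast markers summed to between 2678 and 3029 CPM (counts scaled to the library size) in every library. Of these 7 markers 3 were higher in KO EpiLCs at an adjusted p below 0.1 (edgeR) and 4 did not pass. The higher ones were 42.9%, against 11.8% of all tested genes, and the median log2 fold change of the 7 was -0.0080. Summed naïve markers were at 191 to 200 CPM in WT and 259 to 326 CPM in KO EpiLCs. Of these 7 markers 2 passed as higher and 0 as lower, 28.6% against 11.8% of all tested genes for the higher ones. Neural markers summed to 73.0 to 77.3 CPM in WT and 35.3 to 39.3 CPM in KO EpiLCs. Of these 6 markers 3 were tested and all 3 were lower, 100% against 12.5% of all tested genes. Primitive streak and mesoderm markers summed to 6.02 to 6.57 CPM in WT and 9.10 to 12.1 CPM in KO EpiLCs. Only 1 of these 6 markers passed the filter on low counts. Summed endoderm markers, at 5.07 to 6.19 CPM in WT and 4.78 to 14.5 CPM in KO EpiLCs, overlapped. Of these 6 markers 3 passed the filter, of which 1 was higher and 0 lower, 33.3% against 11.8% of all tested genes for the higher one. The part of these cell type differences in the results was not tested, and in bulk RNA fewer cells of a type and less RNA per cell cannot be told apart.

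Oct6 itself, listed as Pou3f1 (chr4:124550600-124554448, with all gene positions in GRCm39), stood at 161, 143 and 122 CPM in WT and 127, 141 and 128 CPM in KO EpiLCs. The groups overlapped, with a log2 fold change of -0.10 (SE 0.11, adjusted p = 0.574, edgeR). A single inserted nucleotide need not lower the transcript, so that these counts do not check the genotype.

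The effect of Oct6 loss on the members was asked by comparing KO with WT EpiLCs. Among the EMT drivers Twist1 rose 1.71 times, and among the epithelial members Grhl2 rose 1.53 times. No member passed as lower. Of the 10 members 8 passed the filter on low counts and could be tested, and 2 of these passed at an adjusted p below 0.1, both higher in KO EpiLCs, where 24.3% of all tested genes passed, 11.8% higher and 12.5% lower. The 2 of 8 members is thus near the share of all genes. Of members lower in KO EpiLCs, 0 by this test, edgeR gave also 0 at an unadjusted p below 0.05 and DESeq2 gave 0. p-values measure the spread between 3 cultures per genotype and not between clones. All changes below are log2 fold changes of KO over WT EpiLCs from edgeR's quasi-likelihood test, with their standard error (SE), adjusted over all genes tested.

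**Figure D1:**
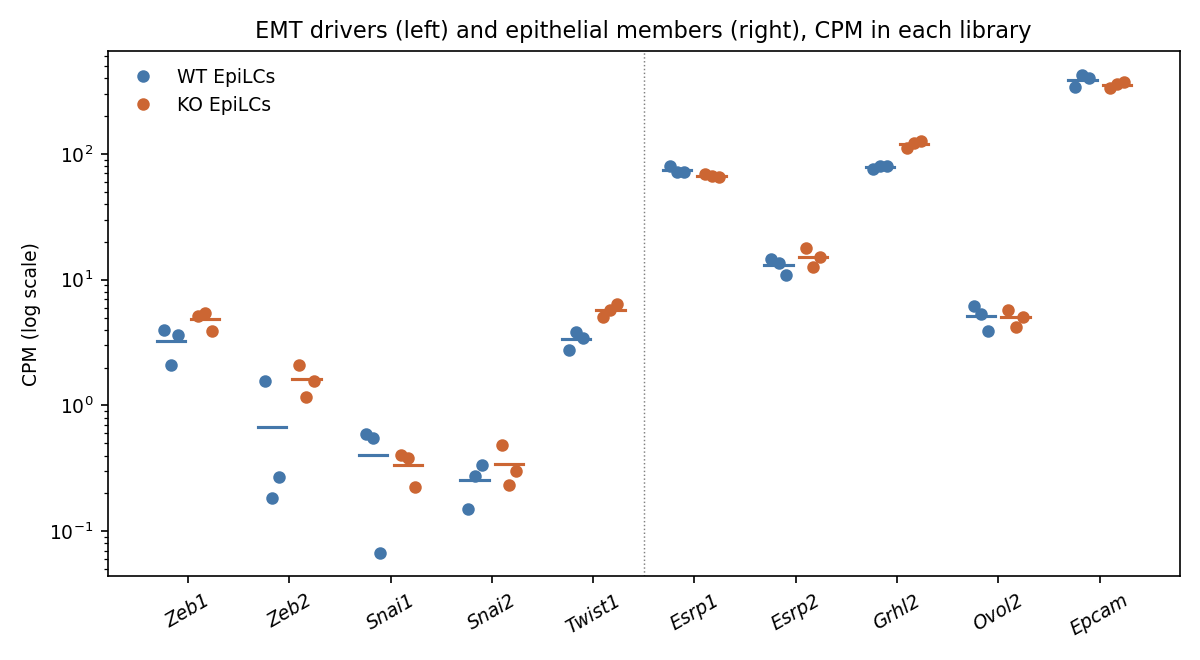
Level of each member in each library, in CPM on a log scale, with WT EpiLCs in blue, KO EpiLCs in orange, 1 point per library and a bar at the group mean (n = 3). Twist1 and Grhl2 are the genes whose KO libraries all lie above the WT libraries, Esrp1 has its KO libraries below, and the other 7 members overlap. Of all tested genes, 33.7% also had groups without overlap, in one direction or the other.

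Twist1 (ENSMUSG00000035799.7, chr12:34007645-34009828) was the driver with the clearest difference. It was counted 37, 42 and 51 times in WT and 62, 75 and 85 times in KO EpiLCs, which is 2.76, 3.83 and 3.45 CPM against 5.02, 5.79 and 6.39 CPM. The lowest KO library lay above the highest WT library. The means were 3.35 ± 0.543 and 5.73 ± 0.687 CPM (SD, n = 3), with a log2 fold change of 0.78 (SE 0.24, adjusted p = 0.0256, edgeR). Without KO library 3 the change was 0.70 and the call was lost (adjusted p = 0.105, edgeR), whereas it held when any other single library was left out, with changes between 0.66 and 0.88.

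Zeb1 (ENSMUSG00000024238.16, chr18:5591851-5775467), which encodes a repressor of Cdh1 and of the miR-200 genes, was counted 53, 23 and 54 times in WT and 64, 71 and 52 times in KO EpiLCs. In CPM these were 3.96, 2.10 and 3.65 against 5.19, 5.48 and 3.91. WT library 2 was the lowest, and the lowest KO library fell between the WT values, so that the groups overlapped. The log2 fold change was 0.57 (SE 0.27, 95% interval -0.00083 to 1.14, adjusted p = 0.169, edgeR), and the sign held without any 1 library, with values of 0.35 to 0.72.

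Zeb2 (ENSMUSG00000026872.19, chr2:44873644-45007464) is the paralog of Zeb1. Its counts were 21, 2 and 4 in WT and 26, 15 and 21 in KO EpiLCs, or 1.57, 0.183 and 0.271 CPM against 2.11, 1.16 and 1.58 CPM. WT library 1 stood apart from both other WT libraries and lay among the KO values. The log2 fold change was 1.22 (SE 0.56, 95% interval 0.046 to 2.40) and did not pass the test (adjusted p = 0.149, edgeR). It passed in 3 of 11 alternatives. The replicate number as a block gave 1.43 (adjusted p = 0.0279, edgeR), and no filter gave 1.22 (adjusted p = 0.0744, edgeR). Leaving out WT library 1 gave 2.74 (adjusted p = 0.0035, edgeR), with WT libraries of 2 and 4 counts left. The other 8 alternatives did not pass, among them DESeq2, at 1.25 (adjusted p = 0.256). Without WT library 2 the change was 0.82 (adjusted p = 0.388, edgeR), and without WT library 3 it was 0.81 (adjusted p = 0.406, edgeR). Summed over 8 fibroblast markers, the libraries gave 22.0, 13.4 and 15.8 CPM in WT and 14.0, 9.26 and 9.70 CPM in KO EpiLCs, highest in WT library 1 as Zeb2 was among the WT libraries. None of the 8 markers was at 0 in every library, but only 4 passed the filter on low counts. Of these 4, 1 was lower and 0 higher in KO EpiLCs, 25.0% against 12.5% of all tested genes for the lower one. The part of these markers in the Zeb2 value was not tested.

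The SNAIL genes were close to the limit of the assay. Snai1 (ENSMUSG00000042821.8, chr2:167380113-167384734) had 8, 6 and 1 counts in WT and 5, 5 and 3 counts in KO EpiLCs, a total of 15 against 13. Snai2 (ENSMUSG00000022676.8, chr16:14523425-14527252) had 2, 3 and 5 counts against 6, 3 and 4. Neither passed the filter, and in both genes the groups overlapped. A fit without the filter gave -0.22 (95% interval -1.80 to 1.36, adjusted p = 0.909, edgeR) for Snai1. For Snai2 it gave 0.39 (95% interval -1.37 to 2.15, adjusted p = 0.860, edgeR), on a chromosome whose median was itself 0.55. A difference was not detectable at this depth.

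Grhl2 (ENSMUSG00000022286.17, chr15:37233280-37363813) gave the smallest adjusted p among the members. Its counts were 1023, 876 and 1193 in WT and 1388, 1576 and 1695 in KO EpiLCs, or 76.3, 79.9 and 80.7 CPM against 112, 122 and 127 CPM. The WT libraries lay close together and every KO library was above them. From 79.0 ± 2.32 to 121 ± 7.58 CPM (SD, n = 3), the log2 fold change was 0.61 (SE 0.096, 95% interval 0.41 to 0.81, adjusted p = 1.66e-04, edgeR). The call held under all 12 alternative settings, with changes of 0.57 to 0.65. Gm16136, an antisense lncRNA that overlaps Grhl2 and was looked up after the values of Grhl2 were seen, was counted 52, 58 and 70 times in WT and 118, 75 and 108 times in KO EpiLCs (log2 fold change 0.76, SE 0.23, adjusted p = 0.0243, edgeR). The use of the strand in counting is not given in the sources used here, so that reads of this pair of genes may not be told apart. In every library the counts of the lncRNA were far below those of Grhl2.

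Ovol2 (ENSMUSG00000037279.14, chr2:144147095-144174066), a zinc finger repressor of Zeb1, stood at 6.19, 5.38 and 3.92 CPM in WT and 5.75, 4.24 and 5.04 CPM in KO EpiLCs. The groups overlapped, and the log2 fold change of -0.040 (SE 0.24, 95% interval -0.54 to 0.46, adjusted p = 0.937, edgeR) changed sign without WT library 1, at 0.12, and without KO library 2, at 0.067.

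Of the splicing regulators, Esrp1 (ENSMUSG00000040728.16, chr4:11331933-11386875) was the abundant one. It stood at 79.5, 72.0 and 71.8 CPM in WT and 69.1, 66.4 and 65.3 CPM in KO EpiLCs. Every KO library was below every WT library, and the groups did not overlap, in one direction or the other, in 33.7% of all tested genes. However, the log2 fold change of -0.15 (SE 0.099, 95% interval -0.36 to 0.054) did not pass the test (adjusted p = 0.327, edgeR). Esrp2 (ENSMUSG00000084128.11, chr8:106853859-106864027) had 14.6, 13.5 and 10.9 CPM in WT and 17.7, 12.6 and 15.04 CPM in KO EpiLCs. Its groups overlapped, with a log2 fold change of 0.22 (SE 0.17, 95% interval -0.14 to 0.58, adjusted p = 0.429, edgeR). Esrp2 shares its locus with Nfatc3 on the opposite strand, which had 798 to 1101 counts in a library against 148 to 219 of Esrp2, and a log2 fold change of -0.037 (SE 0.099).

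Epcam (ENSMUSG00000045394.10, chr17:87943407-87958557) was the most abundant member. Its levels were 342, 427 and 403 CPM in WT and 334, 357 and 371 CPM in KO EpiLCs, with means of 391 ± 43.7 and 354 ± 19.1 CPM (SD, n = 3). WT library 1 was the low one of its group and lay among the KO values. The log2 fold change was -0.14 (SE 0.10, 95% interval -0.35 to 0.071, adjusted p = 0.385, edgeR).

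**Figure D2:**
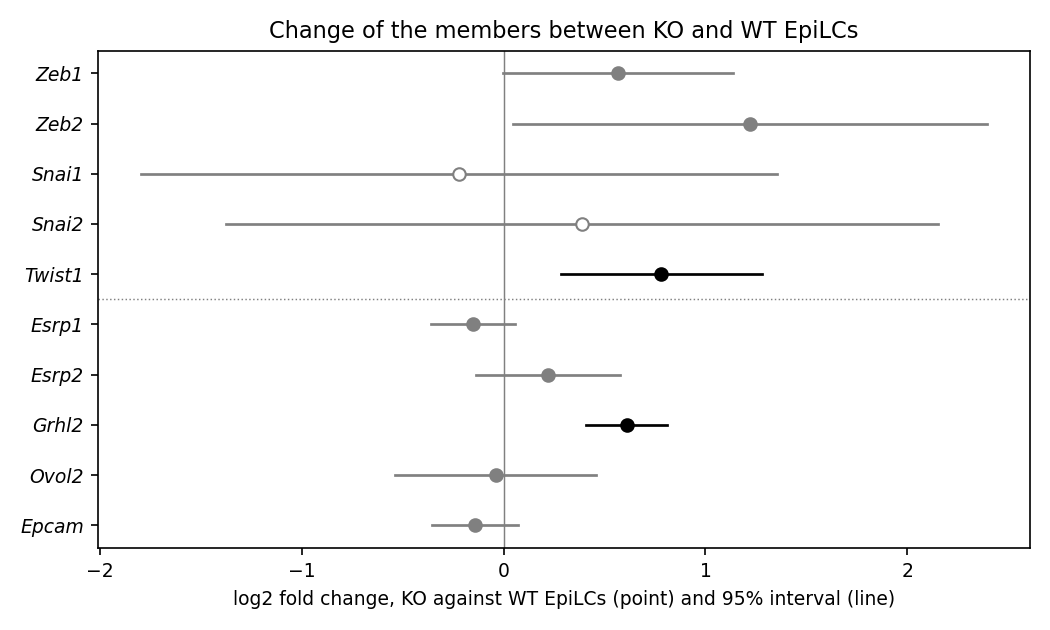
Log2 fold change of each member in KO over WT EpiLCs (point) with its 95% interval (line), drivers above the dotted line and epithelial members below it. Black points passed at an adjusted p below 0.1 (Twist1 at 0.78 and Grhl2 at 0.61), grey points did not, and the open points of Snai1 and Snai2 come from the fit without a filter.

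Per kb of exon, the order of the levels in WT EpiLCs began with Epcam at 151 CPM per kb, followed by Esrp1 at 9.51 and Grhl2 at 9.17 CPM per kb, whose libraries overlapped. Ovol2, at 2.43, Twist1, at 2.02, and Esrp2, at 1.66 CPM per kb, formed a middle range in which neighbours overlapped. The other drivers were rare, with Snai1 at 0.249, Zeb1 at 0.237, Snai2 at 0.110 and Zeb2 at 0.0296 CPM per kb. Of these, Snai1 overlapped with Zeb1 and Snai2 with Zeb2. In KO EpiLCs Grhl2, at 14.0 CPM per kb, was above Esrp1, at 8.55 CPM per kb, without overlap, and Twist1, at 3.47 CPM per kb, was above Ovol2, at 2.36 CPM per kb, also without overlap.

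The drivers summed to 2.46, 2.94 and 2.56 CPM per kb in WT and 3.97, 4.29 and 4.49 CPM per kb in KO EpiLCs. The epithelial members summed to 156, 188 and 178 CPM per kb in WT and 156, 164 and 171 CPM per kb in KO EpiLCs. The ratio of epithelial members to drivers was thus 63.4, 63.9 and 69.5 in WT and 39.2, 38.3 and 38.1 in KO EpiLCs. These sums describe mainly Twist1 and Epcam, which outweighed the other genes of their role, and were not tested.

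**Figure D3:**
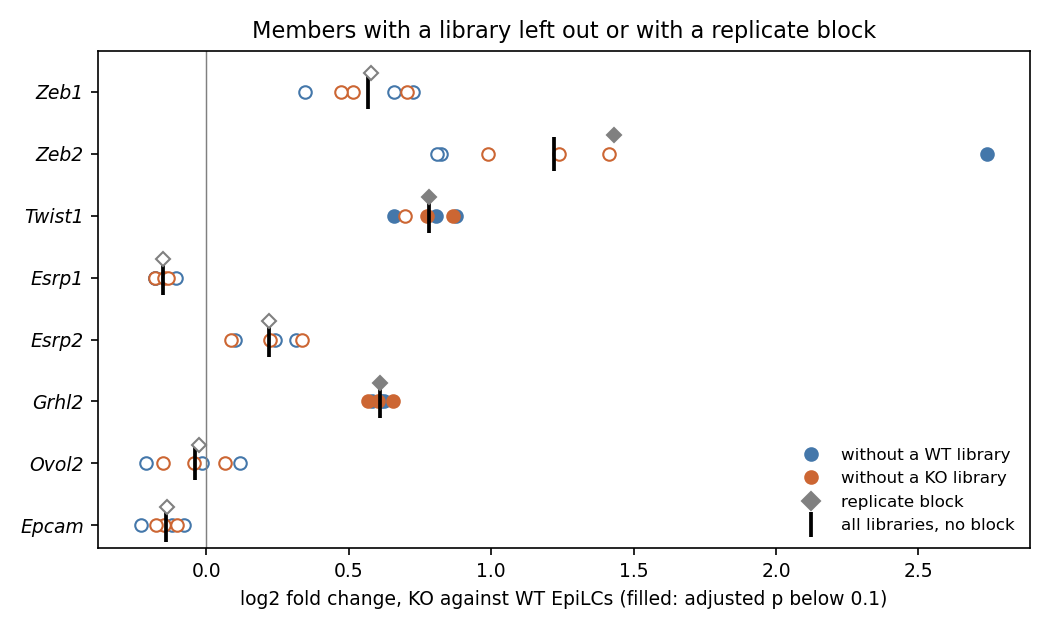
Log2 fold change of the 8 tested members with 1 library left out (circles, blue for a WT and orange for a KO library) and with a block for the replicate number (diamond), beside the value over all libraries (black bar), with filled symbols at an adjusted p below 0.1. Grhl2 is filled throughout and Twist1 is open without KO library 3. Zeb2 moves to 2.74 without WT library 1 and to 0.81 without WT library 3, and Ovol2 lies on both sides of 0.

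The E-box CAGGTG, the core sequence to which SNAI and ZEB proteins are known to bind, was searched on both strands in the promoters, taken in GRCm39 from 250 bases before the start of the canonical transcript to 50 bases from it. Of the 15694 promoters of tested genes 19.7% held it. Among the epithelial members 4 of 5 did, Esrp1, Esrp2 and Epcam among them, and among the drivers 2 of 5, Zeb1 and Snai1. The motif began 76 bases before the start in Esrp2 and 105 bases before it in Epcam. Cdh1 held 3 matches, 2 of which adjoin, beginning 69, 63 and 13 bases before the start. The 250 bases before the start are shown for these genes, since they carry the matches, and for Twist1, the driver that passed the test, which held none. Capitals mark the E-box in either orientation (CAGGTG or CACCTG). The windows are chr17:87943860-87944109, plus strand, for Epcam, chr8:106864028-106864277, minus strand, for Esrp2, chr8:107329733-107329982, plus strand, for Cdh1, and chr12:34007395-34007644, plus strand, for Twist1, each written 5′ to 3′ along the gene.
Epcam: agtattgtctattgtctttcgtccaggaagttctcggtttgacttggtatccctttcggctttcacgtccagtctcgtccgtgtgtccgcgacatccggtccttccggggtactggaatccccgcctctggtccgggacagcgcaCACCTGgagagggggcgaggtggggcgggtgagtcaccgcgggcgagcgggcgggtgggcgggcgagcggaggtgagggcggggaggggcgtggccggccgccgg
Esrp2: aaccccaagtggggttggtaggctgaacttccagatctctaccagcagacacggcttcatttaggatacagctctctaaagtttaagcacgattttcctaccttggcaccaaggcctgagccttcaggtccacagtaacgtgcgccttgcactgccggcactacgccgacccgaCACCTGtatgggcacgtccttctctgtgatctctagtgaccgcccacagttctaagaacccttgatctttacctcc
Cdh1: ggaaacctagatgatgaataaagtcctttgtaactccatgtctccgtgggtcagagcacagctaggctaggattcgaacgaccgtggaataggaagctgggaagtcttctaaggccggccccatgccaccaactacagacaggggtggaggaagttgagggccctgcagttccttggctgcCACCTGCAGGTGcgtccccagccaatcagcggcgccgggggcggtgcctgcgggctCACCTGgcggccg
Twist1: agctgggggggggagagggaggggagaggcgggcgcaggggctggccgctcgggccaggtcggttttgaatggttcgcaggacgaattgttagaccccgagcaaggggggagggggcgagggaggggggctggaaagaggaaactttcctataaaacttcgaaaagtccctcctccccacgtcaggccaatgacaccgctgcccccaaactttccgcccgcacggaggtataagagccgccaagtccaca

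In Esrp1 the match began 42 bases after the start (chr4:11386826-11386855, minus strand), within the stretch shown next.
Esrp1: ggagccaatggccgggcgccgcCAGGTGtc

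The palindrome AACCGGTT, a form of the GRHL motif, was in 0.185% of promoters, and the octamer ATGCAAAT, which POU factors such as Oct6 are known to bind, in 1.67% on either strand. Neither sequence occurred in the window of any member. A match is a description of the sequence and does not show binding.

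Cdh1, the E-cadherin gene and a textbook target of the drivers, stood at 527, 530 and 522 CPM in WT and 394, 394 and 422 CPM in KO EpiLCs. It fell without overlap of the groups (log2 fold change -0.38, SE 0.091, adjusted p = 0.0051, edgeR). Other epithelial junction and surface genes were listed from general knowledge, with earlier results of these data known, and so are no independent evidence. Of 34 listed genes 33 were tested, 21 were lower and none passed as higher, with 0 higher genes also at an unadjusted p below 0.05 in edgeR and by DESeq2, and the list's median log2 fold change was -0.43. The lower genes were 63.6% of those tested in the list, against 12.5% of all tested genes. Marveld3, a tight junction protein, went from 9.33, 6.66 and 6.36 CPM to 2.11, 0.617 and 0.978 CPM (-2.60, SE 0.34, adjusted p = 2.52e-05, edgeR). Krt19, a keratin of simple epithelia, changed by -1.56 (SE 0.24) and Ap1m2, an adaptor of epithelial sorting, by -1.50 (SE 0.19), with adjusted p of 1.39e-04 and 1.76e-05 in edgeR. The CPM of 19 of the 33 tested genes lay lower in every KO than in every WT library, as did the CPM of 17.1% of all tested genes. None of the 5 epithelial members passed as lower, and Grhl2 passed as higher. The difference between the members and the list was not tested. Summed trophectoderm markers, another epithelium, were at 6.79 to 8.49 CPM in WT and 3.70 to 4.21 CPM in KO EpiLCs. Only 1 of these 6 markers passed the filter on low counts, with a log2 fold change of -1.01. The part of these markers in the list was not tested.

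The E-box was in the promoters of 27 of the 33 tested junction genes (81.8%). The list came from general knowledge and holds Cdh1, a textbook target of the drivers, so this share is no independent evidence. Within the list it was in 17 of the 21 genes that fell and in 10 of the 12 that did not pass. Over all tested genes it was in 23.2% of those that fell, 19.1% of those that rose and 19.2% of those that did not pass. The median GC content was 60.7% in the windows of the list and 57.0% in all. Over all tested genes it was 58.3% in those that fell, 56.0% in those that rose and 56.7% in those that did not pass. The part of GC content in the E-box shares was not tested.

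**Figure D4:**
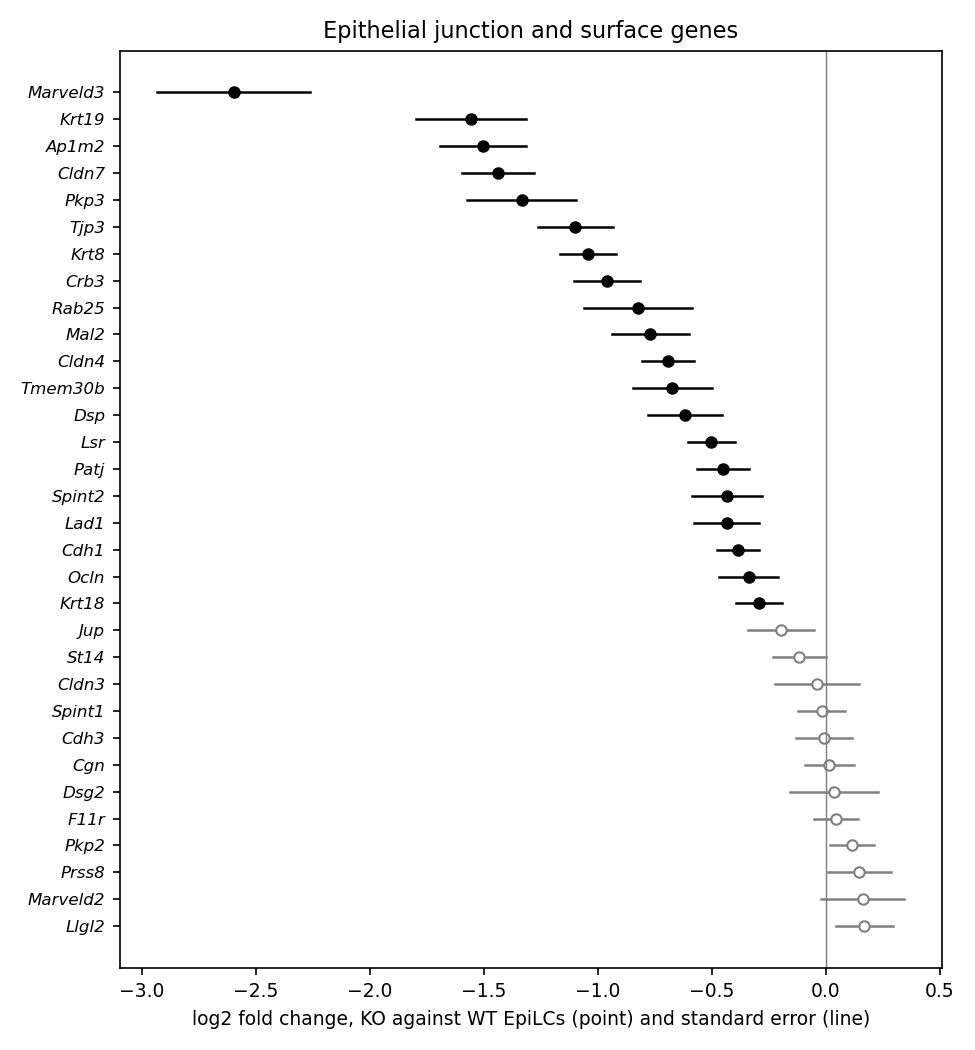
Log2 fold change (point) and standard error (line) of tested epithelial junction and surface genes in KO over WT EpiLCs, ordered by value, filled at an adjusted p below 0.1. A tested gene of the list is not shown. The filled points all lie below 0, from Marveld3 at -2.60, and the 12 open points lie around 0.

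Of 16 further EMT transcription factors 9 were tested, 2 were lower and none passed as higher, a 0 that edgeR at an unadjusted p below 0.05 and DESeq2 gave as well, and the median was -0.066. The lower genes were 22.2% of those tested in the list, against 12.5% of all tested genes, and 24.3% of all tested genes passed in either direction. Hmga2, a chromatin factor upstream of Snai1 and Twist1 in other cells, fell from 6.29 ± 0.709 to 2.76 ± 0.498 CPM (SD, n = 3; -1.18, SE 0.24, adjusted p = 0.0017, edgeR). Snai3, the third SNAIL gene, changed by -0.60 (SE 0.22, adjusted p = 0.0641, edgeR) and its call was lost by DESeq2 (adjusted p = 0.103) and without WT library 1 or 2 or KO library 2 or 3, with edgeR adjusted p up to 0.250.

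Further epithelial regulators numbered 13, of which 9 were tested, 1 was higher and 1 lower, 11.1% in each direction against 11.8% and 12.5% of all tested genes, with a median of 0.052. With the replicate number as a block 3 genes passed instead of 2, the third being Klf5, at -0.35 (adjusted p = 0.0952, edgeR), named after its value was seen. Grhl3, a paralog of Grhl2, stood at 8.96, 7.67 and 7.58 CPM in WT and 11.02, 13.1 and 19.1 CPM in KO EpiLCs (0.84, SE 0.20, adjusted p = 0.0052, edgeR). Like Grhl2 it rose without overlap, with KO library 3 the highest. The third family member Grhl1 was at 0.056 (SE 0.14, adjusted p = 0.841, edgeR). Ehf, an ETS factor of epithelia, went from 58 counts in WT to 22 in KO EpiLCs (-1.38, SE 0.46, adjusted p = 0.0404, edgeR), a call that was lost by DESeq2 (adjusted p = 0.120) and without WT library 1 or 2 or KO library 1 or 2, with edgeR adjusted p up to 0.175.

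Mesenchymal genes went both ways. Of 25 listed 19 were tested, 5 were higher and 6 lower, with a median of -0.38. These were 26.3% and 31.6% of those tested in the list, against 11.8% and 12.5% of all tested genes. Vim, the intermediate filament vimentin, rose from 43.0 ± 6.57 to 151 ± 4.53 CPM (SD, n = 3; 1.81, SE 0.11, adjusted p = 5.06e-09, edgeR). The others that rose, named after their values were seen, were Cdh2, Fn1, Mmp2 and Pdgfra, with log2 fold changes of 0.89, 0.56, 0.35 and 0.94. Lgals1, a galectin, changed by -1.41 (SE 0.13), Thy1, a surface glycoprotein of fibroblasts, by -1.22 (SE 0.35) and Tagln, an actin-binding protein of smooth muscle, by -1.21 (SE 0.32), with adjusted p of 9.45e-07, 0.0175 and 0.0118 in edgeR. Without KO library 3 the list had 7 calls instead of 11. With the replicate number as a block it had 14, the gains being Acta2 at -0.58, Col1a2 at -0.74 and Dcn at -0.57 (adjusted p = 0.0723, 0.0651 and 0.0335, edgeR), all lower and named after their values were seen. Col1a2 lies on chromosome 6, whose median was -0.40. Col1a2 and Dcn are also on the fibroblast marker list.

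Regulators that act with the members were measured as well. Among 12 EMT splicing regulators, all tested, 1 was higher and 1 lower, 8.33% in each direction against 11.8% and 12.5% of all tested genes, with a median of -0.015. Celf2, at 0.60 (SE 0.23, adjusted p = 0.0728, edgeR), lost its call by DESeq2 (adjusted p = 0.145), without a filter (adjusted p = 0.110) and without WT library 2 or KO library 1 or 3. Khdrbs1, which encodes SAM68, at -0.27 (SE 0.10, adjusted p = 0.0651, edgeR), lost it without WT library 2 or any 1 KO library.

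Among 18 cofactors and turnover factors of SNAI and ZEB proteins, all tested, 2 were higher and 3 lower, 11.1% and 16.7% against 11.8% and 12.5% of all tested genes, with a median of -0.046. In the blocked fit 7 passed instead of 5, the gains being Ctbp2 at 0.20 and Usp17le at 0.68 (adjusted p = 0.0793 and 0.0601, edgeR), named after their values were seen. Fbxw7, a ubiquitin ligase subunit that targets SNAI1, rose by 0.45 (SE 0.10, adjusted p = 0.0036, edgeR). Gsk3b, a kinase that marks SNAI1 for degradation, changed by 0.43 (SE 0.11, adjusted p = 0.0104, edgeR) on chromosome 16, whose median was 0.55. Ezh2, the methyltransferase of Polycomb repressive complex 2, changed by -0.55 (SE 0.099, adjusted p = 5.46e-04, edgeR) on chromosome 6, whose median was -0.40. Ajuba, a SNAIL corepressor, changed by -0.31 (SE 0.093, adjusted p = 0.0218, edgeR), and Ctbp1, a corepressor of ZEB1 named after its value was seen, by -0.29 (SE 0.10, adjusted p = 0.0463, edgeR).

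Among 12 partners and proteases of EPCAM, of which 11 were tested, 1 was higher and 5 lower, 9.09% and 45.5% against 11.8% and 12.5% of all tested genes, with a median of -0.28. Cldn7, a claudin that binds EPCAM, fell from 37.2 ± 2.69 to 13.7 ± 3.43 CPM (SD, n = 3; -1.44, SE 0.16, adjusted p = 4.43e-06, edgeR), whereas Epcam itself did not pass. Psen2, a gamma-secretase subunit, changed by -0.58 (SE 0.19, adjusted p = 0.0386, edgeR) and lost its call without KO library 2 (adjusted p = 0.164) or KO library 3 (adjusted p = 0.118). Fhl2, a partner of the cleaved EPCAM tail, changed by -0.64 (SE 0.25, adjusted p = 0.0904, edgeR), a call that was lost by DESeq2 (adjusted p = 0.184), without a filter (adjusted p = 0.141) and without any 1 library but KO library 3. Spint2, a protease inhibitor, changed by -0.43 (adjusted p = 0.0572, edgeR) and Adam17, a sheddase, by 0.33 (adjusted p = 0.0248, edgeR), both named after their values were seen. Without KO library 2 the list had 3 calls instead of 6.

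The miR-200 family, the known inhibitors of Zeb1 and Zeb2, falls into a pair of groups by seed, AAUACUG in miR-200b, miR-200c and miR-429 and AACACUG in miR-200a and miR-141. The 5 mature sequences from RefSeq (GRCm38.p6) are shown with the seed, bases 2 to 8, in capitals.
mmu-miR-200b-3p: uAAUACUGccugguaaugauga
mmu-miR-200c-3p: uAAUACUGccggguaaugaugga
mmu-miR-429-3p: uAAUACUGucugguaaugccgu
mmu-miR-200a-3p: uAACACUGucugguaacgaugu
mmu-miR-141-3p: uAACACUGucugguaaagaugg

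These libraries count fragments of long RNA at the hairpin loci and do not measure the mature miRNAs. Of 7 listed genes of the miR-200 family and miR-205, 2 were tested and none passed, and edgeR at an unadjusted p below 0.05 and DESeq2 also gave 0 in either direction. Mir200a had 14, 14 and 16 counts in WT and 26, 32 and 14 in KO EpiLCs, which overlapped (0.72, SE 0.40, adjusted p = 0.236, edgeR). The other tested gene of the list was at -0.066. Mir200b had 10, 4 and 7 against 3, 2 and 2 counts and was below the filter. Its counts were lower in every KO than in every WT library, but near the floor. CPM lay lower in this way in 17.1% of all tested genes.

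**Figure D5:**
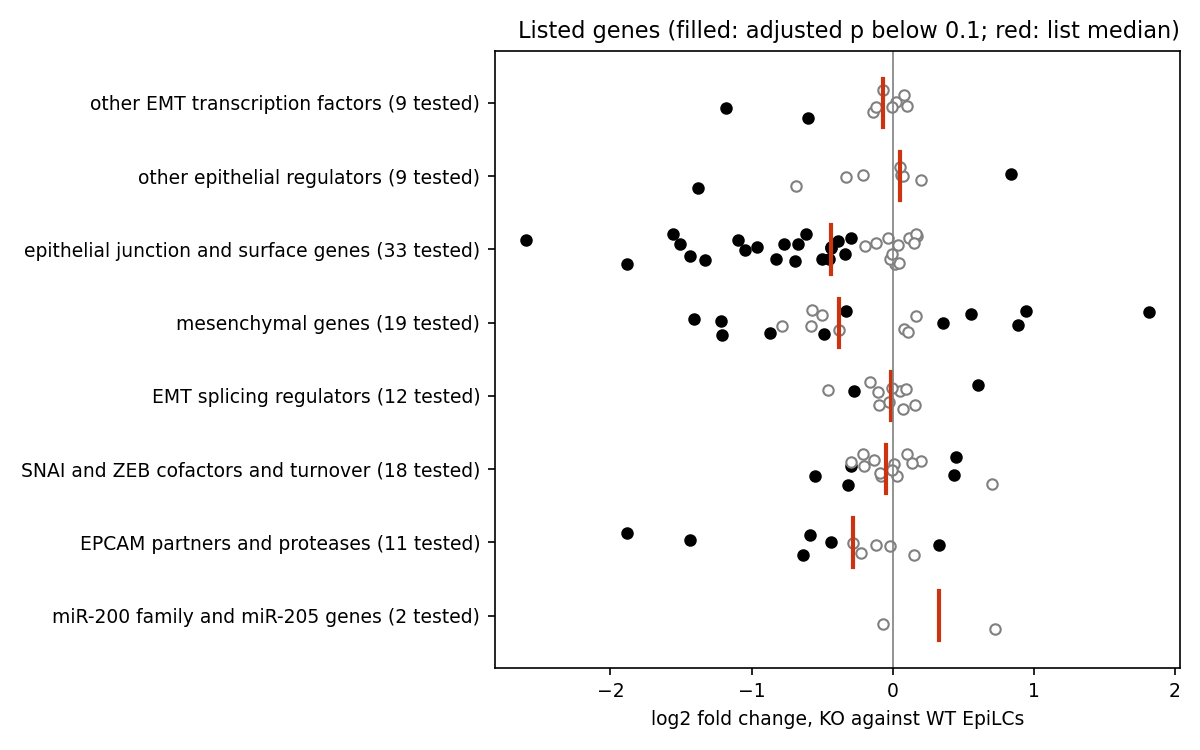
Log2 fold change of every tested gene of the 8 lists in KO over WT EpiLCs, filled at an adjusted p below 0.1, with the list median as a red bar. The junction and surface genes lie mostly below 0 (median -0.43), the mesenchymal genes spread from -1.41 to 1.81, and the other transcription factors and splicing regulators centre near 0.

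By Pearson correlation of log2 CPM over the 6 libraries, the genes most like Twist1 were Rab15 (r = 0.997), Fam162a (r = 0.994) and Pex16 (r = 0.992), and those most like Epcam were Extl3 (r = 0.996), Helb (r = 0.995) and Borcs7 (r = 0.990). They were the closest of 15746 genes over 6 points that share depth and genotype, and are given as a description.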

How the data were processed

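RNA was sequenced from 3 WT and 3 KO EpiLC cultures (TruSeq stranded total RNA, Ribo-Zero Gold). The authors used Fastp for trimming and STAR for mapping to GRCm39, and deposited raw counts per gene without normalization. The submitters' notes also name FastQC and DESeq2. The annotation release, the STAR version and the use of the strand in counting are not given in the sources used here. Identifiers were matched to GENCODE M39, where 54749 of 55416 were found.

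Counts were tested in R 4.3.3 with edgeR 4.0.16 (TMM, filterByExpr with a minimum count of 10, quasi-likelihood test, genotype as the only term, Benjamini-Hochberg over 15746 genes, threshold 0.1 as in the study's methods), after a check on simulated data. CPM use TMM library sizes. Same-numbered cultures, which the series' design text calls paired, deviated together (correlations 0.253, 0.302 and 0.124 over 13228 genes), so blocked values are given where the call of a member or pathway gene changed. Alternatives were DESeq2 1.42.0, other scalings and filters, the block, a threshold of 0.05 and leaving out each library. From each list the up to 4 genes with the largest change that passed at an average log2 CPM of at least 0 are named, and Cdh1. Lists and members were chosen with earlier results of these data known. Groups overlap unless every CPM of a group lies on one side of the other. Promoters came from the GRCm39 genome at the start of the canonical GENCODE transcript, since the counts use that build. A gene that the naming rule selects and a promoter sequence are not reported here.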

Additional observations from a re-analysis of the deposited data

How the results depend on the processing

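Depth limited Snai1, Snai2 and Zeb2, whose libraries held 1 to 26 counts. Of 370 alternative values of single genes, 336 kept their direction and their side of the threshold, 29 lost the call, 3 gained it and 2 changed sign. Both sign changes were of Ovol2 (0.12 without WT library 1 and 0.067 without KO library 2, and -0.21 to 0.12 over all libraries left out), and the 3 gained calls were of Zeb2. With at least 10 counts in every library, the genes that passed and changed by 1 or more on the log2 scale were 584 instead of 978. The genes that passed at any size of change were 3493 instead of 3833.

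The members that rose numbered 2, and 1 to 3 with a library left out (1 without KO library 3). With the replicate number as a block they numbered 3, as Zeb2 passed at 1.43, and without a filter 3. In the lists the block took other epithelial regulators from 2 to 3 calls, mesenchymal genes from 11 to 14 and SNAI and ZEB cofactors from 5 to 7, and the counts of the other lists were the same. Other EMT transcription factors had 2 calls, 1 by DESeq2, 1 at an adjusted p below 0.05 and 1 to 2 with a library left out. Other epithelial regulators had 2, 1 by DESeq2, 1 with at least 10 counts in every library and 1 to 3 with a library left out. Splicing regulators had 2, 1 by DESeq2, 1 without a filter, 0 at an adjusted p below 0.05 and 0 to 2 with a library left out. Mesenchymal genes had 11, and 7 to 11 with a library left out. EPCAM partners had 6, and 3 to 5 with a library left out. Where the number moved, the cause was not tested.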
